A study of Mus musculus with 8 samples.

Results

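Constitutive deep intragenic regions are stretches of accessible chromatin that lay far inside protein-coding genes and were called in every library of a haematopoietic stem cell (HSC) data set. They were chosen from the peak lists themselves. Overlapping peaks on chromosomes 1 to 19 were merged, and a merged region was kept when all 8 libraries had a peak in it, its width was under 2000 bp, its lowest fold enrichment over the libraries was below 20, and its midpoint lay inside a protein-coding gene and more than 10 kb from any gene end. The rule left 10354 members out of 88724 merged regions. Fold enrichment is the authors' own value for each peak. The values fit a ratio of the summit pileup to its local background with 1 added to each. Because calls and fold enrichment chose the members, both are given as a description and neither is tested.

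Accessibility was measured by ATAC-seq, in which a transposase cuts open DNA and inserts sequencing adapters. Bone marrow HSC came from Vav1-cre mice aged 2 to 3 months that carried the iMOS Bcl11a MUT or the iMOS Bcl11a WT construct, and a T1 and a T2 population was sorted from each, with 2 libraries of 5000 nuclei in each of the 4 groups (MUT T1, MUT T2, WT T1 and WT T2). All groups share Vav1-cre, which drives recombination in blood cells, so none of them is a mouse without Cre. The design asks about the role of Bcl11a within HSC and about the effect of its overexpression on wild-type neighbours; the labels do not say how T1 differs from T2. Nothing in the labels says that libraries of a group came from separate animals, or whether T1 and T2 libraries share animals. The main tests treat all libraries as separate, so p-values measure only the spread between these libraries.

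As background, the body of a long gene can hold enhancers, which are short stretches bound by transcription factors that raise transcription from a promoter at a distance, and it can hold internal promoters from which shorter transcripts start. Both are open to the transposase in cells that use them. In blood stem cells, genes of transcription factors such as Runx1 are known for intronic enhancers and for alternative promoters far apart.

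Of the 48684 regions called in all libraries, 29388 had their midpoint in a protein-coding gene, 10441 of these lay more than 10 kb from any gene end, 10357 were also under 2000 bp wide, and 10354 also passed the limit on fold enrichment. The requirements of a gene and of distance from its ends thus removed nearly all that were left out. The 5 members nearest the distance limit lay 10007 to 10019 bp from a gene end and the 5 regions just outside it 9995 to 10000 bp. The widest 5 members measured 1984 to 1994 bp, and the narrowest 5 of the 84 regions removed for their width 2001 to 2008 bp. The 5 members with the highest lowest fold enrichment had values of 14.8 to 19.1, and the 3 regions removed by that limit 22.3 to 25.3. A further 2005 deep regions within the same limits were called in 7 of the libraries.

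The share of regions called in all 8 libraries was 54.9% over all merged regions. It was 45.5% for deep intragenic regions within the width and fold limits, which is the step that set the members apart from 12397 others, and it was 79.3% within 1 kb of a gene end, 50.6% between 1 and 10 kb, and 46.8% more than 10 kb away and outside genes. Deep intragenic and distal intergenic regions thus had similar shares, both below that at gene ends. These shares describe the selection and carry no test.

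Sequence was at hand for members that hold an annotated transcript start of RefSeq (build GRCm38.p6, the same as mm10), since the reference used here gives the bases before such starts and no whole genome. The start table covers 9989 of the members. Of these, 371 (3.71%, 95% exact binomial interval 3.35% to 4.10%, counting error only) held an annotated start, in 344 genes. Among deep regions not called in all libraries, 42 of 11953 (0.351%) did. The members were wider, with a median of 855 bp against 458 bp, and per megabase covered they held 41.0 regions with a start against 7.26.

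The 6 sequences below show the 250 bases before such an internal start, 5′ to 3′ on the strand of the gene. Egf, Ttll9 and Tmem14a hold the start-bearing members with the highest lowest fold enrichment, Tcf12 and Erg are the genes of the HSC lists with such a member, and Nav2 is among the 5 genes with most members. Capitals mark every match, on either strand, to 8 strings of letters searched as motifs: CCGGAAG for ETS factors, TGTGGTT for RUNX factors, AGATAAG for GATA factors, CCCGCCC for KLF or SP factors, CGCATGCG for NRF1, TGACTCA for AP-1, TATAAA for the TATA box, and the CCAAT box by its own letters. None of these strings lies within another. A match is a description of the letters and not a site shown to be bound.
Egf (chr3:129725087-129725336, minus strand): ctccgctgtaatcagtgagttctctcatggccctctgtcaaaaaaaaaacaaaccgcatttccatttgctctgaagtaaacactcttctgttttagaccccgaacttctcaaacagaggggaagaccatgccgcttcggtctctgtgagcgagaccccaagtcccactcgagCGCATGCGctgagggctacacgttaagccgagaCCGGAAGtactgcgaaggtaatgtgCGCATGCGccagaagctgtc
Ttll9 (chr2:152962235-152962484, plus strand): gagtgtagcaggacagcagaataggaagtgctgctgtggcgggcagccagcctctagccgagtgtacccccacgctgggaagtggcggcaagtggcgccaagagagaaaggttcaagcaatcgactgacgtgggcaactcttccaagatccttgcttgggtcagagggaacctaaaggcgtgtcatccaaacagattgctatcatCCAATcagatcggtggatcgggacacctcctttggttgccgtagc
Tmem14a (chr1:21218325-21218574, plus strand): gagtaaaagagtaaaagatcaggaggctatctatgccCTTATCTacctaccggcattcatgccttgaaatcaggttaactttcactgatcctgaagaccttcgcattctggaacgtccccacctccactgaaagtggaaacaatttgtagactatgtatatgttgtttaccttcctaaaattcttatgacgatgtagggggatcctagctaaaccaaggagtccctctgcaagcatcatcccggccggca
Tcf12 (chr9:71896097-71896346, minus strand): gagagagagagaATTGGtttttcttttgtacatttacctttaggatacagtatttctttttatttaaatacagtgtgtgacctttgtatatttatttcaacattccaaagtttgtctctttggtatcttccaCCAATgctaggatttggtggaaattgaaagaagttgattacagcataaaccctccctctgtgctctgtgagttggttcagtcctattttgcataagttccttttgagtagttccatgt
Erg (chr16:95459349-95459598, minus strand): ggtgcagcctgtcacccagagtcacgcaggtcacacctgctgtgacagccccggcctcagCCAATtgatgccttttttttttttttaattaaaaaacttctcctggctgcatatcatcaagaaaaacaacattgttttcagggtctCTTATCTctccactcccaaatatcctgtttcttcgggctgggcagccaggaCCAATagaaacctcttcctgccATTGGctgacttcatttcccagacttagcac
Nav2 (chr7:49245939-49246188, plus strand): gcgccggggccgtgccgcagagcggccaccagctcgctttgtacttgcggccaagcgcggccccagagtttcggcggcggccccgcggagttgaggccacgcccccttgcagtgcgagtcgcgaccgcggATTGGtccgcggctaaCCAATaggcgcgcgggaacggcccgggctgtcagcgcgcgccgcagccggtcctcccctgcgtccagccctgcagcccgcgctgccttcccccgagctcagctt

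The member at the Egf start, where the gene encodes epidermal growth factor, had a fold enrichment of 14.9 and 15.0 in MUT T1, 15.5 and 15.5 in WT T1, 15.0 and 15.3 in MUT T2, and 15.1 and 14.7 in WT T2. The 8 values lay within 14.7 to 15.5, with the WT T1 pair highest. Its window held 2 NRF1 strings and 1 ETS string, with a GC content of 52% and an observed over expected CpG ratio of 0.895. The windows differed widely in base composition. The Nav2 window had a GC content of 74.4% and a CpG ratio of 1.05, whereas the Tcf12 window, from the gene of a basic helix-loop-helix factor, had 34.8% GC and no CpG at all. The Tcf12 member still had a fold enrichment of 8.59 to 11.1. The Erg member, in the gene of an ETS factor needed by HSC, lay low at 3.51 to 4.34, and its window held 1 GATA string and 3 CCAAT strings.

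Over all 371 windows, the median GC content was 56.4% and the median CpG ratio 0.534, and 41.0% had a ratio above 0.6. Over the 20084 annotated starts of protein-coding genes the values were 56.0%, 0.547 and 45.9%, so the internal starts inside members had much the same base composition as gene starts in general. The KLF or SP string was found in 36.9% of the windows (31.7% of all starts), CCAAT in 33.7% (35.3%), the ETS string in 5.39% (9.21%), the TATA string in 6.47% (11.7%), the AP-1 string in 4.31% (4.09%), the RUNX string in 3.77% (3.84%), the GATA string in 2.43% (2.39%) and the NRF1 string in 1.62% (2.08%).

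Seen from the annotation, 1084 starts lay more than 10 kb from any gene end and inside their own gene. A member covered 414 of them (38.2%), a deep region not called in all libraries 46, and another region called in all libraries 39. The remaining 585 (54.0%) lay in no region of any library. Windows at those starts were poorer in CpG, with a median GC content of 47.6% and a CpG ratio of 0.220, and 3.42% of them exceeded 0.6. They held the KLF or SP string in 6.50% of cases and the TATA string in 17.1%. Whether transcription starts at the covered sites was not measured.

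The internal starts inside members lay a median of 40.3 kb from the outer start of the same gene. At that outer start, every library called a region within 1 kb for 247 of the 371 (66.6%) and in some for 18, and for 106 (28.6%) no library had a peak there. For these 106 the internal start lay in a called region and the outer start did not. The share of members with a start was 6.03% (7 of 116) at a lowest fold enrichment under 3, 2.73% at 3 to 5, 3.78% at 5 to 7, 4.20% at 7 to 10 and 4.94% at 10 to 20.

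The 10354 members lay in 3916 genes, which is 44.1% of the 8886 genes with any stretch more than 10 kb from every gene end. This stretch is called the eligible span below. A single member was found in 1760 genes, 602 genes held 5 or more, and 112 held 10 or more. The 112 genes together held 13.9% of the members, the 20 genes with most held 385 (3.72%), and 775 genes were needed to reach 50%. The members were thus spread over many genes rather than gathered in a few. Over all eligible spans, 606 Mb in total, there were 1.72 members per 100 kb.

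Longer genes held more members but fewer for their length. The rank correlation across genes between the number of members and the eligible span was 0.577 over the 8886 genes (Spearman's rank correlation, a description, since genes are not independent replicates). The density was 2.59 members per 100 kb in genes with an eligible span up to 25 kb, 2.10 at 100 to 200 kb, 1.55 at 200 to 400 kb and 0.633 above 400 kb. Of 395 genes with an eligible span over 300 kb, 89 held none.

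**Figure D1:**
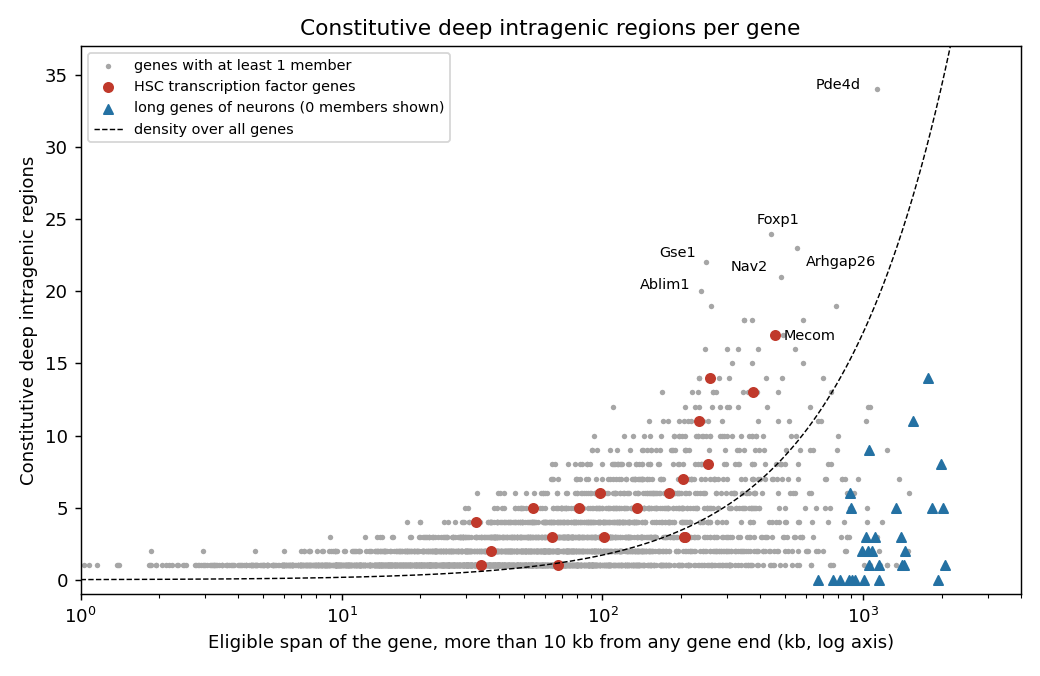
Number of constitutive deep intragenic regions in each gene (vertical axis) against the eligible span of the gene in kb (horizontal log axis). Grey points are genes with at least 1 member, red points HSC transcription factor genes and blue triangles long genes of neurons (genes with 0 members shown), and the dashed line is the density over all genes, 1.72 per 100 kb; Pde4d stands highest with 34, and the neuronal genes lie along or near the bottom.

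Pde4d, which encodes a phosphodiesterase that breaks down cyclic AMP, held most members, 34 of its 65 deep regions (chr13:108654177-109955969). They were spaced over 1212 kb, with neighbouring midpoints 1.01 to 160 kb apart (median 17.5 kb). Counting all 65 deep regions, 47 and 43 were called in MUT T1, 47 and 48 in WT T1, 57 and 52 in MUT T2, and 48 and 41 in WT T2. The highest count was in MUT T2 replicate 1 and the lowest in WT T2 replicate 2, the shallowest library. No region within 1 kb of either end of Pde4d was called in any library.

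The strongest Pde4d member, by its lowest value, was chr13:109775821-109776806. Its fold enrichment was 12.7 and 17.0 in MUT T1, 13.8 and 13.8 in WT T1, 15.1 and 14.0 in MUT T2, and 14.2 and 13.8 in WT T2. The 2 MUT T1 libraries marked both ends of the range, and the other 6 lay between them. The summits of the 8 libraries fell within 4 bp of each other. At a second Pde4d member, chr13:109609605-109610218, all 8 libraries placed the summit at the same base, with a fold enrichment of 6.94 to 10.2.

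Foxp1 encodes a forkhead factor needed for B cell development and held 24 members (chr6:98925342-99522746). Its member at chr6:99349838-99350958 had a fold enrichment of 9.19 and 6.90 in MUT T1, 9.54 and 9.49 in WT T1, 9.99 and 9.25 in MUT T2, and 9.60 and 8.44 in WT T2. All but MUT T1 replicate 2 lay above 8. Both MUT T1 values lay below those of WT T1 and MUT T2, and their range overlapped that of WT T2. Foxp1 members were weak as a set, with a median lowest fold enrichment of 4.89 against 6.87 in Pde4d, and their summits varied more, by a median of 210.5 bp against 97 bp.

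Arhgap26, on chromosome 18, held 23 members. The strongest of them also lies in the predicted gene Gm5820, and its fold enrichment was 9.58 and 11.4 in MUT T1, 12.9 and 10.5 in WT T1, 11.9 and 13.4 in MUT T2, and 13.8 and 10.8 in WT T2. The values of every group overlapped those of another. Gse1, a protein of histone deacetylase complexes, held 22 members in a shorter gene (chr8:120228501-120581383), which gave it 8.79 per 100 kb against 3.02 in Pde4d. Its member at chr8:120300401-120301246 varied little, at 10.5 and 10.4 in MUT T1, 10.8 and 9.56 in WT T1, 9.92 and 10.1 in MUT T2, and 10.4 and 10.7 in WT T2. Nav2, which acts on the cytoskeleton, held 21 members (chr7:48959063-49610090), with its strongest at chr7:49132678-49133418. There the fold enrichment was 10.6 and 12.7 in MUT T1, 13.2 and 11.4 in WT T1, 10.6 and 12.0 in MUT T2, and 12.3 and 11.5 in WT T2, with no group apart from the others.

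**Figure D2:**
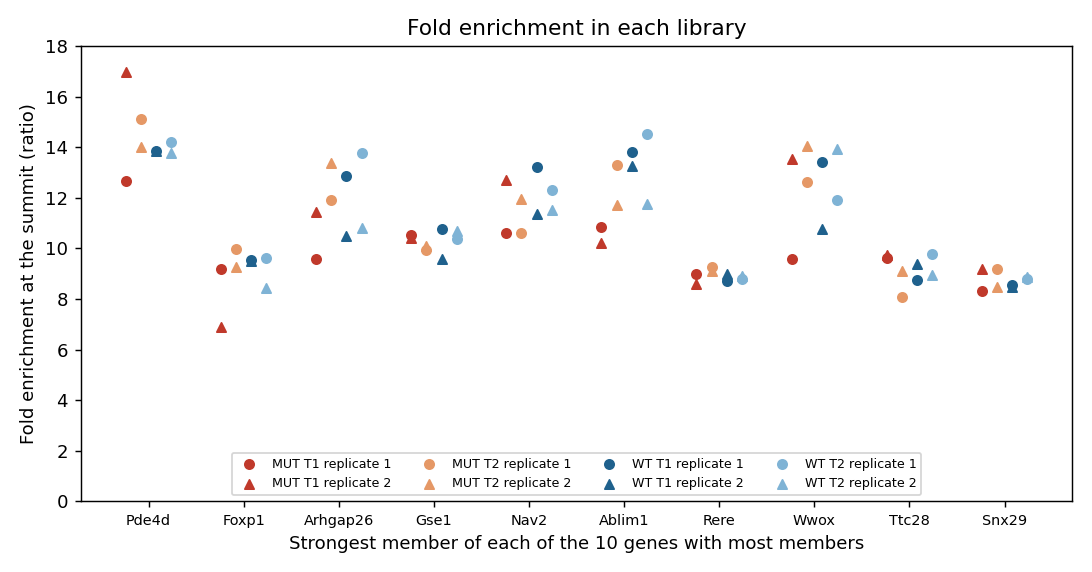
Fold enrichment at the summit (ratio, vertical axis) of the strongest member of each of the 10 genes with most members, by library; colours give the 4 groups and marker shapes the replicate number. In Pde4d the 8 libraries run from 12.7 to 17.0 and in Gse1 from 9.56 to 10.8, with the groups intermixed.

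The next genes by number were Ablim1, an actin-binding LIM protein (20 members), Rere, an atrophin-family corepressor (19), Wwox, an oxidoreductase with WW domains (19), and Ttc28, Snx29, Maml3 and Rora with 18 each. Maml3 is a coactivator of Notch signalling and Rora a nuclear receptor. Elmo1, which works with DOCK proteins to activate Rac, Mecom, a zinc-finger factor needed to maintain HSC, and Thsd4 held 17 each. Sgms1 (sphingomyelin synthase), Bach2 (a repressor in lymphocytes), Pde10a (another phosphodiesterase), Atxn1 and Kalrn held 16 each. Their densities ran from 2.43 per 100 kb in Wwox to 8.35 in Ablim1. All 20 genes with most members lay above the density of all genes, which their choice by number of members favours.

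Gaps between members of the same gene varied widely, and whether members gather more than their density gives was not tested. Over 6493 pairs of neighbouring members in the same gene, the median gap was 16.0 kb, 10.9% of the gaps were under 5 kb and 17.4% over 50 kb. Ablim1 had the densest run, 6 members whose midpoints fall within 20 kb (chr19:57117287-57135126). Cbx7, Elmo1, Fyb and Map3k20 each had 5 in such a window.

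**Figure D3:**
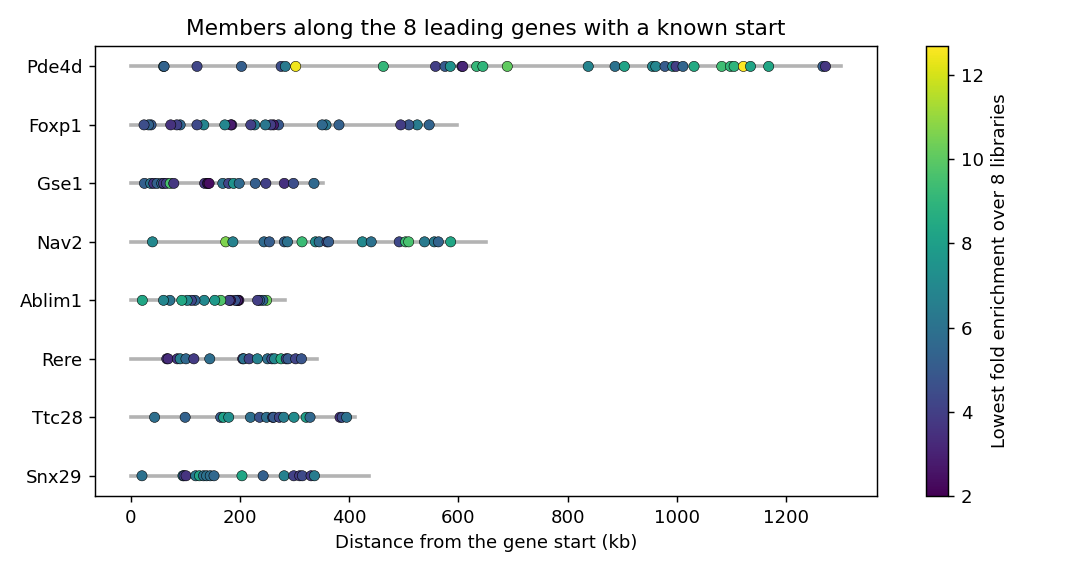
Members along the 8 genes with most members whose start is known, each drawn to scale as a grey line from its start (0 kb) to its other end; points are members and their colour is the lowest fold enrichment over the 8 libraries. The 34 points of Pde4d are spread over 1212 kb, while those of Ablim1 and Gse1 crowd into shorter genes.

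By density the order was different. Among genes with 5 or more members, Cbx7, a chromobox subunit of Polycomb repressive complexes, had the highest, 6 members at 18.2 per 100 kb of eligible span. Afap1l1 followed with 16.8, Pstpip1, an adaptor of the actin cytoskeleton in blood cells, with 16.4, Dennd3 with 15.1, Tspan14 with 14.8 and Tmod3, a cap of actin filaments, with 14.3. Myo18a and Synpo each had 13.0, Sulf2 12.7 and Vgll4 12.5. All deep regions of Afap1l1 (5) and Tspan14 (6) were members. The strongest Cbx7 member, chr15:79940883-79941431, had a fold enrichment of 11.9 and 13.8 in MUT T1, 11.9 and 12.5 in WT T1, 12.4 and 8.96 in MUT T2, and 12.5 and 9.05 in WT T2. MUT T2 replicate 2 and WT T2 replicate 2 were low there and the other 6 libraries lay between 11.9 and 13.8.

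Gene lists show which kinds of genes held members. They are described by counts beside those over all genes, and no list was tested. The density over all genes pools genes of all lengths, from 2.59 per 100 kb at eligible spans up to 25 kb to 0.633 above 400 kb. The lists differ in length. Only the long genes of neurons are set beside other long genes, those above 400 kb, and these are not matched to them in length. As a check of the labelled cell type, 65.7% of all protein-coding genes had, within 1 kb of an end, a region that every library called. This was so for 27 of 30 HSC transcription factor genes and for all 24 matched genes of HSC surface and cytokine receptors. It was so for 10 of 25 granulocyte and monocyte genes, 12 of 24 B lymphoid, 16 of 25 T and NK lymphoid, 16 of 23 erythroid, 23 of 25 megakaryocyte and platelet, and 21 of 25 stromal and endothelial genes. No library had a peak at either end of 10 granulocyte and monocyte genes (Elane and S100a8 of neutrophils among them), 6 B lymphoid genes (Rag1 and Ms4a1 among them), 8 T and NK lymphoid genes (Cd3e among them), 6 erythroid genes (Hba-a1 and Slc4a1 among them), 2 megakaryocyte and platelet genes (Ppbp and Gp6) and 2 stromal and endothelial genes (Cdh5 and Col3a1). Of the HSC transcription factor genes, 2 (Ldb1 and Nfia) had no peak at either end as well. The genes named here are the exceptions of their lists where most of the list had such a region. In bulk libraries, fewer cells of a type and less access per cell cannot be told apart. The part of other cell types in the members was not tested.

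HSC transcription factor genes held 117 members in 19 of 20 genes with an eligible span, or 3.77 per 100 kb against 1.72 over all genes. The median gene of the list had 3.56 per 100 kb, and the median of all eligible genes was 0. These medians are not matched for length: 4358 of the 8886 eligible genes had a span up to 25 kb, and 21.1% of those held a member. Mecom had 17, Runx2, a Runt-domain factor, 14, Nfia, of the nuclear factor I family, 13, and Prdm16, a zinc-finger factor that maintains HSC, 11. At the strongest Mecom member, chr3:30476841-30477683, the fold enrichment was 7.55 and 9.45 in MUT T1, 8.81 and 8.26 in WT T1, 9.66 and 8.72 in MUT T2, and 11.1 and 11.7 in WT T2. Both WT T2 libraries were the highest there, and MUT T1 replicate 1 the lowest. The median fold enrichment over all members had the same extremes, 7.83 and 8.13 in WT T2 and 7.03 in MUT T1 replicate 1. This order is therefore not particular to Mecom. Runx1 and Meis1, outside the rule for named genes and picked as well-known HSC regulators, held 6 each. Bcl11a, named because the study alters it, held 3 of its 11 deep regions. The other 8 were called in some libraries only. Of all deep regions in this list, 36.4% were called in all libraries, against 45.5% over all genes. The median lowest fold enrichment of the 117 members was 4.76, and none of them reached 10. These genes thus had many deep regions for their length (10.4 per 100 kb against 3.77 over all genes), and the share of them called everywhere was not raised.

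The genes of HSC surface and cytokine receptors held 25 members in 11 of 16 eligible genes, 2.66 per 100 kb (median gene 2.70). Itga6, the integrin alpha 6 chain, and Tgfbr3, a co-receptor for TGF-beta, had 4 each, and Tgfbr2, the type II TGF-beta receptor, had 3.

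Among lists of mature lineages, B lymphoid genes held 75 members in 11 of 14 eligible genes (3.48 per 100 kb, median gene 2.44). Foxp1, Bach2 and Aff3, a nuclear protein of the AF4 family with 10 members, held most of them. T and NK lymphoid genes held 57 in 10 of 15 (2.80, median gene 3.07), led by Rora, Skap1, an adaptor of T cell receptor signalling (14), and Prkcq, a protein kinase C of T cells (7). Megakaryocyte and platelet genes had the highest density of all lists, 4.88 per 100 kb (median gene 3.52), but from 13 members in 6 of 9 eligible genes. The strongest Vwf member, in the gene of von Willebrand factor (chr6:125661284-125662070), had a fold enrichment of 14.8 and 16.3 in MUT T1, 14.8 and 12.9 in WT T1, 14.0 and 12.0 in MUT T2, and 16.1 and 15.9 in WT T2. MUT T2 replicate 2 was the lowest there. The MUT T1 and WT T2 libraries and WT T1 replicate 1 lay at 14.8 or above.

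Itgb3, the platelet integrin beta 3 chain, also had 4 members, and Plek, a substrate of protein kinase C in platelets, had 2. Erythroid genes held 24 in 7 of 10 (2.48, median gene 2.16), with 8 in Sox6, a factor that represses embryonic globin, 5 in Sptb, the red cell beta spectrin, and 3 in Bcl2l1, a survival factor. Granulocyte and monocyte genes are short, and 5 of them had an eligible span (5 members in 2 genes, 3.64 per 100 kb, median gene 0). Zeb2, a zinc-finger repressor, held 3 members, Spi1, which encodes PU.1, held 2, and Irf8 had an eligible span of 0.335 kb and none. Stromal and endothelial genes held 12 in 7 of 19 (1.44 per 100 kb, median gene 0), with 4 in Flt1, a VEGF receptor, and 2 each in Ptprb and Lama4.

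Signalling and chromatin genes that many cell types use were also above the density of all genes. Kinase and phospholipid signalling genes held 191 members in 26 of 30 (2.52 per 100 kb, median gene 2.99), with 15 in Prkce and 12 in Prkca, both protein kinase C genes. Chromatin and corepressor genes held 138 in 27 of 28 (2.79, median gene 3.50), with 14 in Hdac9, a class IIa histone deacetylase, 13 in Arid1b, a subunit of BAF complexes, and 12 in Zmiz1. The share of deep regions called in all libraries was 44.8% for the kinase and 41.8% for the chromatin genes, against 45.5% over all genes, while deep regions of any kind numbered 5.61 and 6.68 per 100 kb against 3.77.

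Long genes of neurons, which encode adhesion and synaptic proteins, held 90 members in 21 of 30 genes, or 0.240 per 100 kb (median gene 0.162). Genes of all kinds with an eligible span above 400 kb had 0.633. That set includes the neuronal genes and also shorter genes, since the shortest neuronal eligible span was 667 kb (Grid1). Dlg2, a synaptic scaffold, had 14, Nrxn3, a neurexin, 11, and Opcml 9. Lrp1b (1934 kb of eligible span), Cntn5 (1146 kb) and Erbb4 (1002 kb) held none. No gene-end region was called in any library for 15 of the 30. The 90 members had a median lowest fold enrichment of 6.54 (3.54 to 10.7), against 6.09 over all members. At the strongest in Nrxn3, chr12:89364478-89365232, the fold enrichment was 10.1 and 12.2 in MUT T1, 10.8 and 12.6 in WT T1, 12.1 and 10.2 in MUT T2, and 11.6 and 14.3 in WT T2. Only WT T2 replicate 2 stood above 13, and the groups overlapped. That library also had the highest median fold enrichment over all members (8.13).

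**Figure D4:**
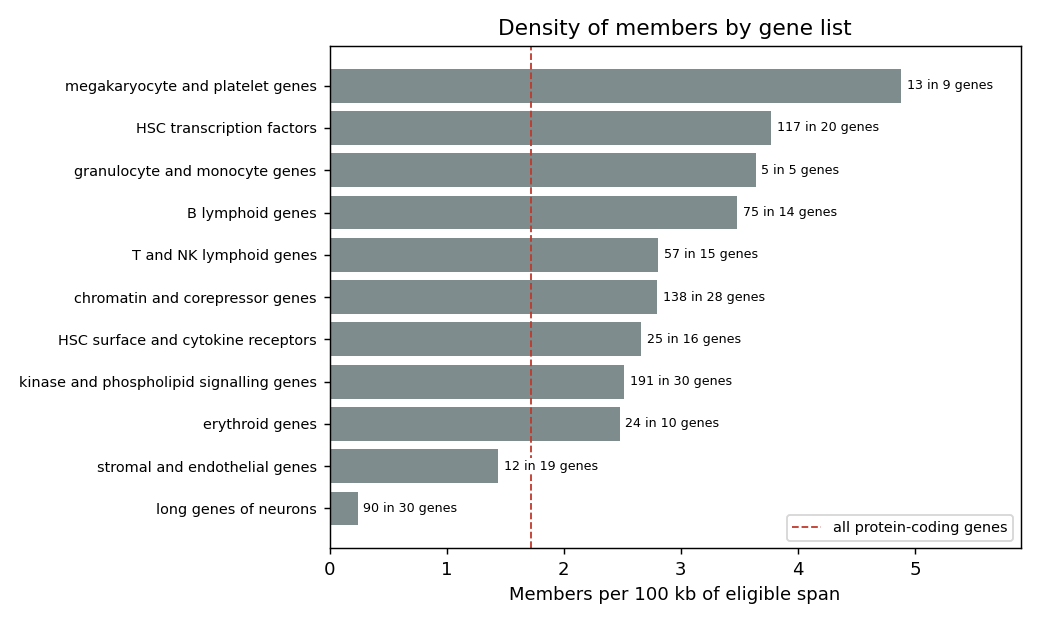
Members per 100 kb of eligible span for 11 gene lists (bars), with the number of members and of genes with an eligible span beside each bar; the dashed line is the density over all protein-coding genes, 1.72. Long genes of neurons stand lowest at 0.240, stromal and endothelial genes lie under the line, and the other 9 lists lie above it. The line pools genes of all lengths and is not matched to the length of the genes in each list.

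Pooled over genes, the density of members was lower far from both ends, but the far distances exist in long genes only. Where the start of the gene is known (3077 of 3916 genes with members, 78.6%), the density was 2.54 per 100 kb at 10 to 20 kb from the start, 2.13 at 40 to 80 kb, 1.36 at 160 to 320 kb and 0.733 beyond. Measured from the other end it was 2.34, 2.20, 1.43 and 0.692 at the same distances. Among genes of like length the pattern differed with the length and with the end measured from. In genes with an eligible span of 200 to 400 kb the density was 1.54 per 100 kb at 10 to 20 kb from the start, 1.77 at 40 to 80 kb, 1.58 at 160 to 320 kb and 1.47 beyond. In genes above 400 kb it was 0.607, 0.6499, 0.722 and 0.641 at these distances, with 1.06 at 20 to 40 kb. Measured from the other end of genes above 400 kb, it was 0.886 at 10 to 20 kb, 1.01 at 40 to 80 kb, 0.717 at 160 to 320 kb and 0.586 beyond. Genes with a span of 100 to 200 kb had 2.74 at 10 to 20 kb from the start and 2.03 at 80 to 160 kb, and 2.15 and 2.19 at those distances from the other end. Deep regions not called in all libraries, pooled over genes, fell from 2.89 to 1.04 per 100 kb away from the start; from the other end they had 2.37 at 10 to 20 kb, 2.66 at 40 to 80 kb and 1.01 beyond 320 kb. Of 8239 members, 4243 (51.5%, exact binomial interval 50.4% to 52.6%, counting error only) lay nearer the start of the gene than its other end. Of the eligible bases 50.2% did, and of deep regions not called in all libraries 53.8%. The members thus had little lean towards either end.

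**Figure D5:**
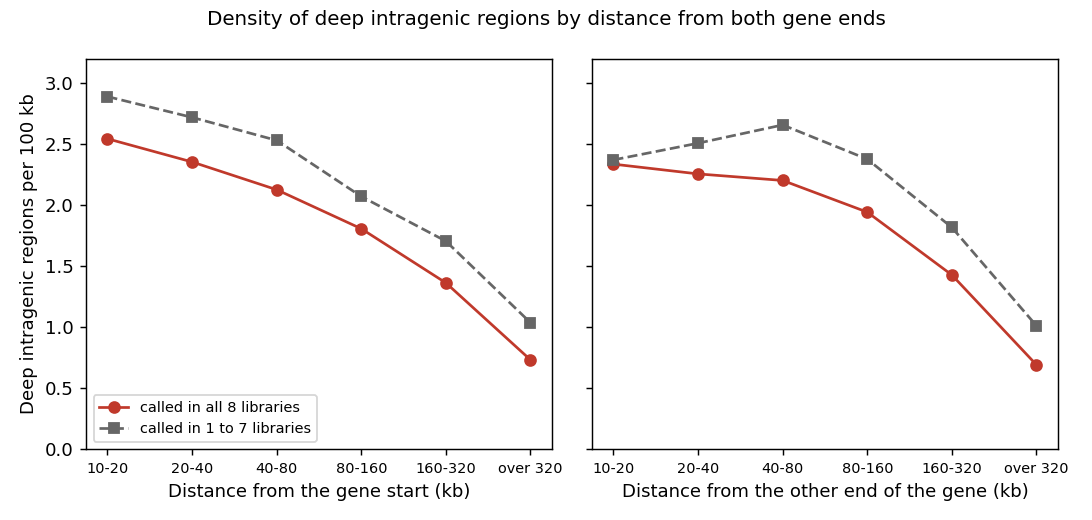
Density of deep intragenic regions (per 100 kb of eligible span) by distance in kb from the gene start (left) and from the other end (right), for regions called in all 8 libraries (red circles) and in 1 to 7 libraries (grey squares). The red line runs from 2.54 down to 0.733 on the left and from 2.34 down to 0.692 on the right, and the grey line on the right rises to 2.66 at 40 to 80 kb before it drops; genes of all lengths are pooled.

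Members had a median width of 855.5 bp and a median lowest fold enrichment of 6.09. In 95.3% of them every library had a single peak. Their fold enrichment was moderate within each list: the median member stood at the 55.2 to 62.5 percentile of the list in the 8 libraries. A lowest value of 10 or more was reached by 607 members (5.86%), and 121 were under 3.

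The position of the summit, the base with the highest pileup, was compared between libraries. The distance between the outermost of the 8 summits had a median of 143 bp, and in 998 members (9.64%) it was 50 bp or less. It was smaller in stronger members, 216 bp at a lowest fold enrichment of 3 to 5, 152 bp at 5 to 7, 89 bp at 7 to 10 and 62 bp at 10 to 20. For regions called in all libraries under the same limits, the median was 178 bp within 1 kb of a gene end, where regions were wider (1179 bp), and 129 bp outside genes, where they measured 837 bp. These differences move with width and were not tested.

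The strongest member of all lay in Xkr6 (chr14:63681581-63682018), a gene of the XK family of membrane proteins. Its fold enrichment was 20.4 and 20.7 in MUT T1, 19.1 and 22.1 in WT T1, 23.5 and 22.2 in MUT T2, and 22.6 and 25.2 in WT T2, and all 8 libraries had the same summit base. It passed the limit of 20 only through WT T1 replicate 1. Next came members in Ttll7, a tubulin polyglutamylase (chr3:146945727-146946621, 16.3 to 19.3), Mrc1, the mannose receptor of macrophages (chr2:14295217-14295999, 15.5 to 21.3), Myzap (chr9:71543431-71544415, 15.3 to 17.9) and Phf21b (chr15:84829198-84829991, 14.8 to 21.2). In these 4 the summits fell within 5 bp.

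The libraries differed in depth, and calls near the members moved with it. The genome background recovered from the lists, a measure of depth, was 1.89 to 3.38 fragments per position, lowest in MUT T1 replicate 2 (2.03) and in WT T2 (2.45 and 1.89). The median fold enrichment at members was lowest in the deepest library, MUT T1 replicate 1 (7.03). It was highest in the shallowest, WT T2 replicate 2 (8.13), and the part of depth in it was not tested. In the 5 deepest libraries alone, chosen after the depths were seen, 12669 regions met the rule. By the rule all members are called everywhere, so the comparison between groups uses deep intragenic peaks outside the members, as a percentage of the peaks in the list. This was 9.78% and 5.88% in MUT T1, 8.89% and 9.26% in WT T1, 9.97% and 8.63% in MUT T2, and 7.39% and 5.52% in WT T2. The 3 shallowest libraries had the 3 lowest values. MUT libraries had 8.57% ± 1.89 (SD, n = 4) and WT libraries 7.77% ± 1.70 (SD, n = 4), a difference of 0.798 percentage points that was smaller than either SD (exact two-sided permutation test over 70 arrangements, p = 0.514, adjusted p = 0.771 over 4 tests). T1 libraries had 8.45% ± 1.75 and T2 libraries 7.88% ± 1.89 (SD, n = 4 each), a difference of 0.576 percentage points (same exact permutation test, p = 0.657, adjusted p = 0.771). The smallest p that 4 against 4 allows is 0.0286, and 2 against 2 libraries cannot go below 0.333, so single groups are given as values only.

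The width of the peaks at members moved with depth as well. Their median width was 694 and 531 bp in MUT T1, 676 and 670 bp in WT T1, 674.5 and 647 bp in MUT T2, and 591 and 532 bp in WT T2. MUT T1 replicate 2 lay far below its partner, at the level of the WT T2 libraries. The mean was 636.6 ± 73.0 bp in MUT and 617.3 ± 68.8 bp in WT libraries (SD, n = 4 each; difference 19.4 bp, exact permutation p = 0.771, adjusted p = 0.771), and 642.8 ± 75.2 bp in T1 and 611.1 ± 63.2 bp in T2 (SD, n = 4 each; difference 31.6 bp, exact permutation p = 0.543, adjusted p = 0.771). No difference between constructs or populations exceeded the spread between libraries. MUT against WT pools the T1 and T2 populations of each construct, and any pairing of T1 with T2 libraries by animal is unknown. The mean background was 2.93 fragments per position in MUT against 2.72 in WT and 2.99 in T1 against 2.66 in T2, so depth moved the same way as all 4 differences; its part in them was not tested.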

How the data were processed

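ATAC-seq peaks of 8 HSC libraries were analysed from 1 deposited peak list per library (60944 to 73328 peaks on chromosomes 1 to 19). The submitters' processing notes name Bowtie2, SAMtools, MACS2 and mm10, without versions; a shift of the cut sites is not mentioned there. Each deposited peak has a score, a fold enrichment (a ratio), its p-value and q-value as −log10 (lowest −log10 q-value 3.00) and a summit offset, the authors' own values as their peak caller wrote them. A region missing from a list may be accessible below that threshold. The background in fragments per position was solved from ratio and p-value of each deposited peak.

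Peaks overlapping by at least 1 bp were merged. Genes came from RefSeq tables of GRCm38.p6. Transcript starts were at hand for chromosomes other than 18, and not for every gene there. A gene end is an end of any gene in the table, and exons and introns were not analysed here. Where gene spans overlap, a member counts for each gene (52 members lie in more than 1 gene). Of 325 list entries, 8 had no match on these chromosomes (Gpr56, Btk, Gata1, Alas2, Dock11, Diaph2, Kdm6a and Bcor). The result of 1 of the 12 lists is not reported here.

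The members and lists were chosen with earlier results of these data known. Named genes are the 20 with most members, the 10 densest with 5 or more, the 3 with most members of each list and the 3 longest neuronal genes without any. Named regions are, in the 5 leading genes, the member with the highest lowest fold enrichment and that with the smallest summit spread, and the 5 strongest members of all. The annotated starts inside members and the strings searched there were added after the data were seen, as were the strongest members named in other genes and the densities by distance among genes of like length. Values per library were compared by exact permutation tests with Benjamini-Hochberg adjustment. Alternatives changed the distance, width, fold and q limits, the gene ends, the merging, the number of peaks and the libraries. Python 3.11.15, numpy 2.4.6, pandas 2.3.3, scipy 1.17.1 and matplotlib 3.10.9 were used, and the scripts were tested on simulated data.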

Additional observations from a re-analysis of the deposited data

Results flagged for a closer look

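The median width of peaks at members was 531 bp in MUT T1 replicate 2, far from the other 3 T1 libraries, which had 670 to 694 bp; chance alone marks about 1 in 20 groups in this way. Its background was 2.03 fragments per position, against 3.24 to 3.38 in those 3. The part of depth in its width was not tested.

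Chromosome X was not among the chromosomes compared. Of its 2012 merged regions, 132 met the same rule for constitutive deep intragenic regions.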

How the results depend on the processing

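Limits: peak lists hold no signal below the threshold, so a region missing from a shallow library may be accessible there, and depth bounds every count of regions called in all libraries. With limits of more than 20 kb from a gene end, 6308 members in 2352 genes were left. The number of members was 9167 to 12911 under the other alternatives, with 12669 in the 5 deepest libraries (chosen after the depths were seen) and 10410 to 10995 without each library in turn, in 3919 to 4034 genes; Pde4d held most members in every setting.

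None of the 4 comparisons between groups passed the threshold in any setting (exact permutation p 0.171 to 1). The replicate block and the 5 deepest libraries allow too few arrangements for any p to pass it, so these settings could not decide. With equal numbers of peaks (60944 per library) the differences in deep peaks outside members turned to -0.0357 percentage points for MUT against WT (exact permutation p = 0.8286) and -0.0619 for T1 against T2 (exact permutation p = 0.686). Without each library in turn they ranged from 0.0521 to 1.76 and from -0.218 (without WT T2 replicate 2) to 1.49. The difference in median width between MUT and WT ranged from -7.54 (without WT T2 replicate 2) to 54.7 bp, was -0.5 bp without MUT T1 replicate 1 and -0.333 bp in the 5 deepest libraries, and that between T1 and T2 ranged from 5.88 to 69.3 bp. The cause was not tested. No width was computed for merged summit windows.

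The median summit spread was 149 bp at 20 kb, 129 bp with equal numbers of peaks, 130 bp with summit windows of 200 bp, 109 bp in the 5 deepest libraries, where fewer summits enter, and 126 to 135 bp without each library in turn. The share of members with an annotated start was 4.21% with ends of protein-coding genes only, 2.79% with summit windows, which are narrower, and 3.16% in the 5 deepest libraries.

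The labels do not say whether replicate numbers pair the libraries. Deviations of same-numbered libraries correlated weakly, at 0.0186 to 0.0852, which does not settle it. With the replicate block, the differences are the same by construction (0.798 and 0.576 percentage points, 19.4 and 31.6 bp), and exact permutation p was 0.444 (MUT against WT) and 0.667 (T1 against T2) for deep peaks, and 0.889 and 0.444 for width.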
